A study of Mus musculus with 14 samples.

Results

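Pyruvate dehydrogenase kinases, the phosphatases that oppose them and the subunits of the pyruvate dehydrogenase complex were followed in mammary epithelial cells (MECs) of mice that overexpress Usp22. The 10 genes were taken by symbol from the 16124 genes of the deposited table and all 10 were found there. They are 4 kinase genes (Pdk1, Pdk2, Pdk3 and Pdk4), 2 phosphatase catalytic subunit genes (Pdp1 and Pdp2) and 4 genes of the complex itself (Pdha1, Pdhb, Dlat and Pdhx). Pdk4 was chosen by its measured difference between genotypes in these same mice, so that difference is given as a description without a test. The other 9 were listed for their roles.

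The pyruvate dehydrogenase complex sits in the mitochondrial matrix and turns pyruvate from glycolysis into acetyl-CoA, which enters the citrate cycle or feeds fatty acid synthesis. Its E1 enzyme is built from the products of Pdha1 and Pdhb, Dlat encodes the E2 acetyltransferase, Pdhx encodes the protein that tethers the E3 enzyme, and Dld encodes E3. Pyruvate dehydrogenase kinases phosphorylate the E1 alpha subunit and switch the complex off, and the Pdp1 and Pdp2 phosphatases remove the phosphate and switch it on. Pdk4 is the kinase gene known for its induction by fasting, glucocorticoids and fatty acids, through nuclear receptors and forkhead factors, in muscle, heart, liver and adipose tissue. Transcript levels do not show how much of the complex is phosphorylated.

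RNA was sequenced from 14 females of 3.5 months, 7 of each genotype, with 1 library per mouse. They formed 7 littermate pairs that carry the numbers 1, 3, 4, 5, 6, 7 and 8. Usp22 OE/OE mice were homozygous for a FLAG- and MYC-tagged mouse Usp22 cDNA driven by the CAGGS promoter at the ROSA26 locus, after removal of a STOP cassette by Zp3-Cre in the germline. WT littermates carried no such allele, and whether any sequenced animal still carried Zp3-Cre is not given in the sources used here. Because the promoter is active in all tissues, the stroma and the other organs of the OE/OE mice overexpressed Usp22 as well. The cells of each mouse were a digested and centrifuged epithelial fraction from several mammary glands and were not sorted by surface markers.

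Between 20125106 and 41835978 fragments were counted on genes per library. Usp22 had 3500 to 5380 normalized counts in WT and 74948 to 144288 in OE/OE, so every library matched its label. Krt8, a luminal keratin and the most abundant of the 10 pan-epithelial markers, had 99133 to 180962 normalized counts in WT and 109523 to 166156 in OE/OE. Other cells were present in the fraction: the summed level of 12 adipocyte markers was 17782 to 40678 in WT and 14781 to 37621 in OE/OE, and that of 12 skeletal muscle markers was 562 to 2009 and 466 to 1921. No marker in the table was at 0 in any mouse.

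Levels of different genes were compared per length, in FPKM (fragments scaled to merged exon length and to the total counted on genes, computed here). In WT MECs Pdha1 had the highest level of the 10 genes, 50.8 ± 3.10 (SD, n = 7), and Pdk4 came next with 25.8 ± 9.56. Pdhb followed with 14.1 ± 2.32, then Pdk2 with 9.83 ± 2.30 and Dlat with 8.97 ± 0.811. By its mean, Pdk4 was the most abundant kinase transcript per length and also the one that varied most between WT mice, with a range of 11.4 to 41.7 that overlapped the ranges of Pdhb and of Pdk2. In the WT mouse of pair 3, Pdk2 (12.0) was above Pdk4 (11.4). Lower in the order stood Pdk3 (6.58 ± 0.710), Pdp1 (4.41 ± 0.554), Pdk1 (4.07 ± 0.648), Pdhx (3.73 ± 0.377) and Pdp2 (1.11 ± 0.391). The ranges of WT mice overlapped between Pdhb and Pdk2, although Pdhb was the higher in each of the 7 mice. They also overlapped between Pdk2 and Dlat, Pdp1 and Pdk1, and Pdk1 and Pdhx. There the first gene was the higher in 4, 4 and 5 of the 7 mice, so the order within these last couples is not beyond the spread. The ranges did not overlap between Pdha1 and Pdk4, Dlat and Pdk3, Pdk3 and Pdp1, or Pdhx and Pdp2. With the length of the longest transcript in place of merged exons, 7 of the 10 genes kept their position.

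**Figure D1:**
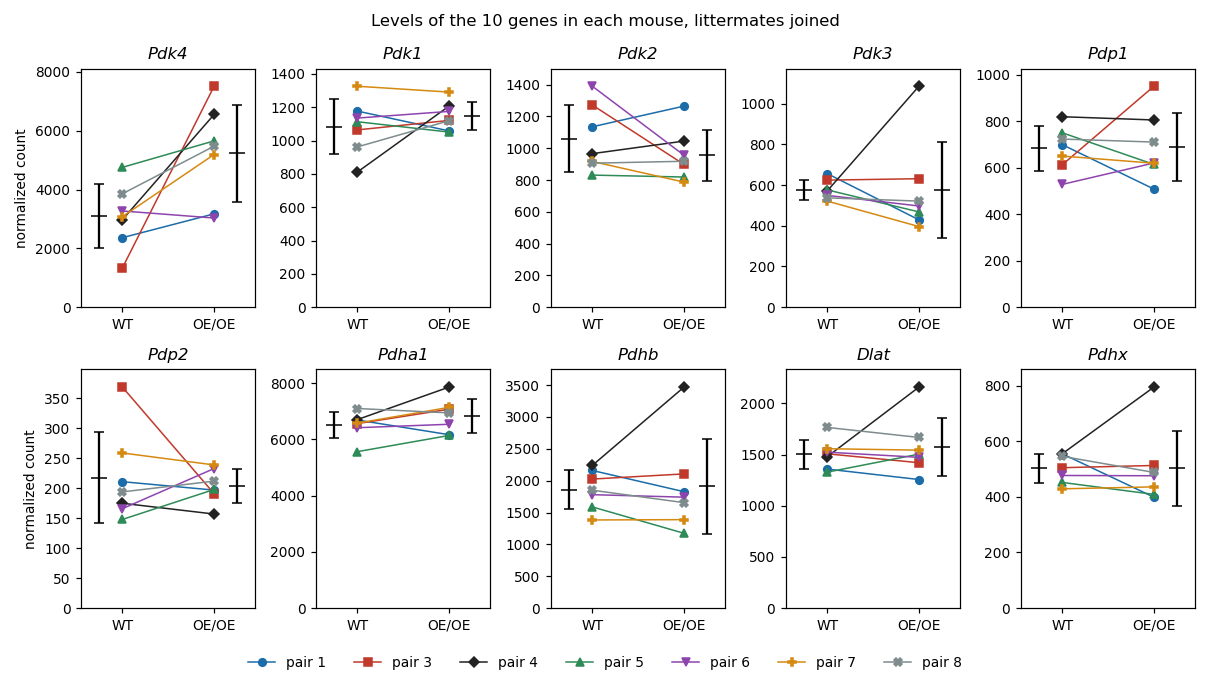
Normalized counts of the 10 genes (vertical axes, linear scale from 0) in the 7 WT and 7 Usp22 OE/OE mice, with littermates joined by a line and the mean ± SD of each genotype at the sides. Pdk4 runs from 1338 to 4757 in WT and from 3033 to 7515 in OE/OE, and the OE/OE mouse of pair 4 is the highest of all mice for Pdk3, Pdha1, Pdhb, Dlat and Pdhx.

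Pdk4 (ENSMUSG00000019577.6, chr6:5483351-5496309, minus strand, GRCm38) lies on the same chromosome as ROSA26. From the lowest to the highest mouse its WT level ran from 1338 over a median of 3080 to 4757 normalized counts, against 3033, 5476 and 7515 in OE/OE. By littermates, the WT and the OE/OE mouse had 2365 and 3175 in pair 1, 1338 and 7515 in pair 3, 2976 and 6555 in pair 4, 4757 and 5656 in pair 5, 3273 and 3033 in pair 6, 3080 and 5193 in pair 7, and 3859 and 5476 in pair 8. The OE/OE mouse was above its littermate in 6 pairs and slightly below it in pair 6. The genotypes overlapped, although 5 OE/OE mice lay above every WT mouse and 3 WT mice lay below every OE/OE mouse. Ranges without overlap were found for 0.0434% of all genes. The fitted difference was 0.78 on the log2 scale (standard error 0.26, a 1.72-fold level), and 86.7% of the table's genes varied less from pair to pair than Pdk4 (SD of its 7 pair differences 0.849). Pair 3 weighed most, with a pair difference of 2.49 that combined the lowest WT and the highest OE/OE level, and without it the fitted difference was 0.49. In tissue made of several cell types, fewer cells of a type and less RNA per cell cannot be told apart, which holds for every level given here.

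Adipocyte markers are given beside Pdk4 because adipocytes express it. Their summed level was higher in the OE/OE mouse of pairs 1 (20968 in WT, 37621 in OE/OE), 3 (24383 and 34003) and 7 (23141 and 25740). The sum was lower in pairs 4, 5, 6 and 8. Their score, the mean of log2(normalized count + 1) over 12 of the 13 listed genes, had a mean of 7.95 ± 0.609 over the WT mice and 7.22 ± 0.757 over the OE/OE mice (SD, n = 7 each) and was lower in the OE/OE mouse of 6 pairs, opposite to Pdk4. With that score as a covariate the Pdk4 difference was 0.57. Pan-epithelial markers moved the same way as Pdk4, higher in the OE/OE mouse of 6 pairs, with a score of 14.4 ± 0.226 in WT and 14.5 ± 0.269 in OE/OE, and with that score as a covariate the Pdk4 difference was 0.71. The luminal score, over 11 markers that include Krt8, was lower in 5 pairs and higher in 2. The basal score was lower in 3 pairs and higher in 4. Fibroblast markers were lower in 5 pairs. The skeletal muscle score was 6.18 ± 0.699 and 6.19 ± 0.886, and with it as a covariate the difference stayed at 0.78. Across the 7 pairs, the Pdk4 difference had a Pearson r of -0.279 with the adipocyte score difference (exact permutation p = 0.493, adjusted p = 0.811 over 12 relations; Spearman rho -0.429, p = 0.354, adjusted p = 0.606; r = -0.157 without pairs 1 and 4). By Pearson's r, the strongest of the 12 relations, with 11 marker scores and Usp22 itself, was that with skeletal muscle markers (r = -0.679, exact permutation p = 0.0774, adjusted p = 0.681; rho -0.571, p = 0.2, adjusted p = 0.606; r = -0.706 without pairs 1 and 5). By Spearman's rho, the strongest was that with luminal markers (rho -0.786, exact permutation p = 0.0480, adjusted p = 0.576, with r = -0.488 and r = -0.409 without pairs 5 and 6). None of the 12 relations passed the adjustment. For Usp22, r was 0.315 (exact permutation p = 0.540, adjusted p = 0.811), rho was -0.107 (p = 0.840, adjusted p = 0.916) and r was -0.645 without pairs 3 and 7, so no relation with the degree of overexpression was detectable over 7 pairs.

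The other 3 kinase genes did not pass the test between genotypes, which was that of limma, blocked by litter, at an unadjusted p of 0.05 or less, the relaxed criterion of the study. Among all 16124 genes, 3.81% passed it, 1.95% higher and 1.85% lower in OE/OE, and of the 9 genes other than Pdk4 0 passed, as was also the case with edgeR and DESeq2 on the recovered fragments. Each of these 9 had a limma adjusted p of 1.00 over all genes.

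Pdk1 (chr2:71873224-71903858), a kinase gene known as a target of hypoxia-inducible factor, had 811 to 1326 normalized counts in WT (median 1113) and 1051 to 1291 in OE/OE (median 1121). Its difference was 0.09 on the log2 scale (standard error 0.09, limma p = 0.352, exact sign-flip p = 0.422, 95% interval -0.12 to 0.30). Pdk2 (chr11:95026258-95041354), a broadly expressed kinase gene, had 831 to 1390 in WT (median 966) and 787 to 1265 in OE/OE (median 918), a difference of -0.14 (standard error 0.10, limma p = 0.205, exact sign-flip p = 0.281, 95% interval -0.38 to 0.09). It was higher in 3 pairs and lower in 4, so the kinase with the second highest mean level did not differ in 1 direction. The genotypes overlapped for both genes, with 2 WT mice below every OE/OE mouse for Pdk1 and 2 OE/OE mice below every WT mouse for Pdk2.

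Pdk3 (chrX:93764607-93832201) had a narrow range in WT, 521 to 656 normalized counts (median 571, coefficient of variation 8.42%), and a wide one in OE/OE, 396 to 1085 (median 497, 41.2%). The spread rested on pair 4, where the OE/OE mouse had 1085 and its littermate 571, whereas in the other 6 pairs Pdk3 was lower in 5 and differed by 0.02 in pair 3. Over all pairs the difference was -0.08 (standard error 0.16, limma p = 0.642, exact sign-flip p = 0.688, 95% interval -0.44 to 0.29), and without pair 4 it was -0.25 and passed the test. With the adipocyte score as a covariate it was -0.48 and passed. With the pan-epithelial score as a covariate it was 0.06, in the opposite direction. Both settings in which Pdk3 passed also called more genes over the whole table. Of all 16124 genes, 1366 passed without pair 4 and 2596 with the adipocyte score, against 614 over all pairs without a covariate.

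Summed per length, the 4 kinase transcripts reached 34.7 to 61.1 in WT (median 42.04) and 44.2 to 80.3 in OE/OE (median 59.5). Pdk4 made up 32.8% to 68.2% of that sum in WT (median 56.9%) and 56.3% to 76.0% in OE/OE (median 71.0%), and its share was higher in the OE/OE mouse of all 7 pairs. The other 3 kinases together were at 17.5 to 24.99 in WT (median 19.4) and 15.4 to 26.3 in OE/OE (median 18.8). Their sum was lower in the OE/OE mouse of 5 pairs, so the share of Pdk4 moved with both: in pair 6 Pdk4 itself was lower and its share went from 53.8% to 57.2%, while the other 3 kinases went from 24.99 to 19.1. These sums hold the Pdk4 difference that put the gene in the group and are given as a description.

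**Figure D2:**
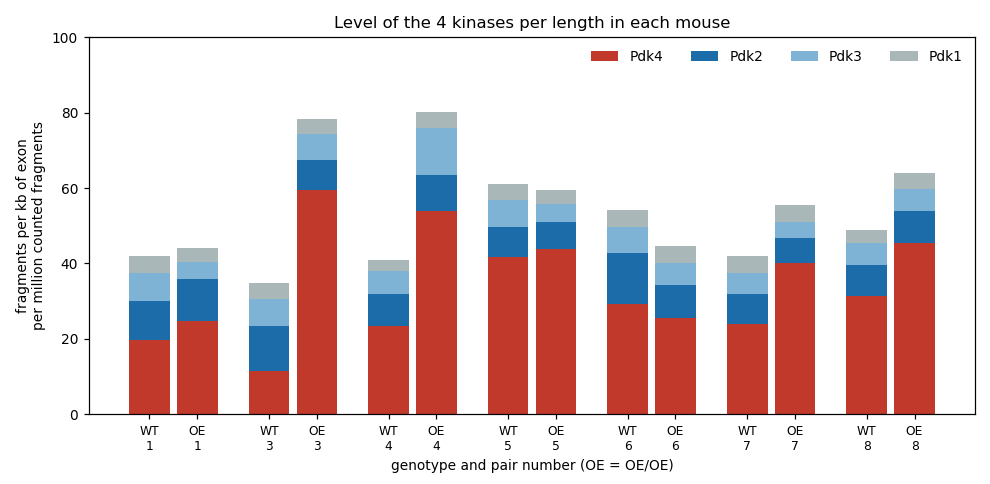
Stacked level of Pdk4, Pdk2, Pdk3 and Pdk1 transcripts (vertical axis, FPKM on merged exons, from 0) in each of the 14 mice, in pair order with WT left and OE/OE right. The Pdk4 segment takes 32.8% of the bar in WT pair 3 and 76.0% in OE/OE pair 3, while the 3 other segments together stay between 15.4 and 26.3 in all mice.

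Of the phosphatases, Pdp1 (chr4:11958184-11966452), whose product is stimulated by calcium, had 528 to 819 normalized counts in WT (median 699) and 508 to 950 in OE/OE (median 620). The fitted difference was -0.00 (standard error 0.12, limma p = 0.998, exact sign-flip p = 1.00, 95% interval -0.28 to 0.28). Pdp2 (chr8:104591451-104599026), whose product does not depend on calcium, was the least abundant of the 10 genes, with 148 to 369 in WT (median 194) and 157 to 239 in OE/OE (median 198) and a difference of -0.04 (standard error 0.17, limma p = 0.814, exact sign-flip p = 0.828, 95% interval -0.42 to 0.34). Neither phosphatase passed the test, and both moved in each direction among pairs. Per length, the kinase sum divided by the phosphatase sum was 5.80 to 11.8 in WT (median 8.12) and 8.47 to 13.5 in OE/OE (median 11.4). The phosphatase sum was 4.57 to 5.98 in WT and 4.05 to 6.80 in OE/OE and also entered the ratio, which in pair 5 went from 10.3 to 12.8 with a kinase sum of 61.1 and 59.5 and a phosphatase sum of 5.93 and 4.65.

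Within pairs, Pdp2 went against Pdk4. The Pdp2 difference was -0.94 in pair 3, where Pdk4 differed by 2.49, and it was 0.42 and 0.48 in pairs 5 and 6, where Pdk4 differed by 0.25 and -0.11. Pairs 1, 4, 7 and 8 lay between, with Pdp2 differences of -0.10, -0.15, -0.12 and 0.13. Over the 7 pairs Pearson's r was -0.958 (exact permutation p = 0.000794, adjusted p = 0.00714 over the 9 relations of Pdk4 with the other genes) and Spearman's rho was -0.964 (p = 0.00278, adjusted p = 0.025). Without pairs 3 and 6, which were farthest from the median of Pdp2, r was -0.734, and leaving out 1 pair at a time gave -0.987 to -0.852, the weakest without pair 3 (exact permutation p = 0.0208). Of the 16123 other genes in the table, 2 (0.0124%) had a lower r with Pdk4. By deviations from the genotype mean over the 14 mice, r was -0.729 and 28 genes (0.174%) were lower.

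The relation was weaker between mice of 1 genotype. In the 7 WT mice r was -0.865 (exact permutation p = 0.0149, adjusted p = 0.134) and rho -0.75 (p = 0.0663, adjusted p = 0.5), with r = -0.746 without pairs 3 and 7. In the 7 OE/OE mice r was -0.486 (exact permutation p = 0.277, adjusted p = 0.381) and rho -0.679 (p = 0.110, adjusted p = 0.375), with r = -0.591 without pairs 4 and 7. The WT mouse of pair 3 had both the lowest Pdk4 level and the highest Pdp2 level, 369 normalized counts. The relation of Pdk4 and Pdp2 was singled out after its values were seen, and none of the other 8 genes had a relation with Pdk4 that passed the adjustment.

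**Figure D3:**
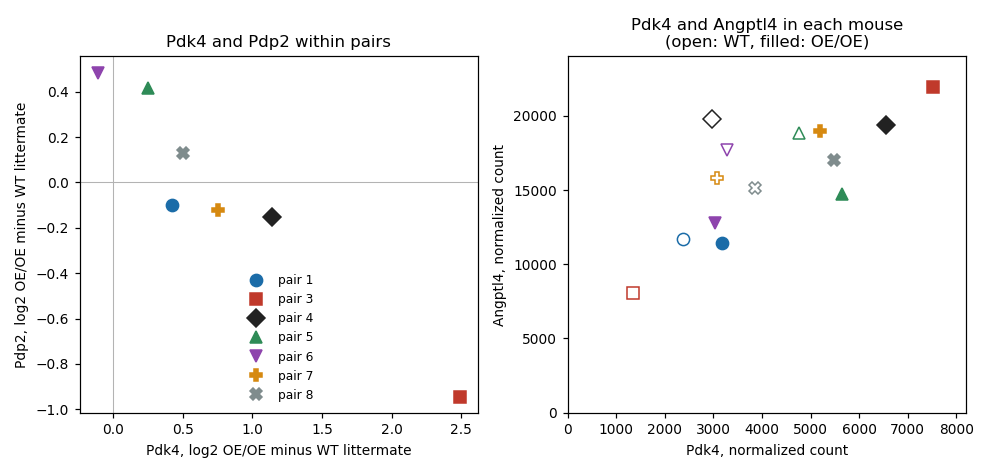
Left, the Pdp2 difference against the Pdk4 difference within each of the 7 littermate pairs (log2 OE/OE minus WT on both axes). Right, Angptl4 against Pdk4 in each mouse (normalized counts on both axes, open symbols WT, filled symbols OE/OE). Pair 3 lies at 2.49 and -0.94 on the left, and pair 6 at -0.11 and 0.48.

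The stretches just upstream of the annotated start are shown for the 4 kinase genes and Pdp2, since Pdk4 was the kinase gene named by its difference between genotypes and Pdp2 ran against it. The sequences come from RefSeq (GRCm38.p6), 5′ to 3′ on the strand of each gene, at chr6:5496310-5496528 for Pdk4, chr2:71872974-71873223 for Pdk1, chr11:95041372-95041621 for Pdk2, chrX:93832202-93832400 for Pdk3 and chr8:104591222-104591450 for Pdp2. Capitals mark the CACGTG palindrome, the E-box.
Pdk4: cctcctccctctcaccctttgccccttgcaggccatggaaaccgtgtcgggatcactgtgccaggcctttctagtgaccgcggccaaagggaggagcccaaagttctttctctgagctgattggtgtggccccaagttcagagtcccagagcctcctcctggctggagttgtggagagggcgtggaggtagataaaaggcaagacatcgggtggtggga
Pdk1: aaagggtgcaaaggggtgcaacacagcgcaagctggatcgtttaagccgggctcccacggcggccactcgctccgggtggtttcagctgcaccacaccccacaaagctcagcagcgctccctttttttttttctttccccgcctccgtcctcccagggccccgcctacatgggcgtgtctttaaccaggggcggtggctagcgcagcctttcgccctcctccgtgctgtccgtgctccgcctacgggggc
Pdk2: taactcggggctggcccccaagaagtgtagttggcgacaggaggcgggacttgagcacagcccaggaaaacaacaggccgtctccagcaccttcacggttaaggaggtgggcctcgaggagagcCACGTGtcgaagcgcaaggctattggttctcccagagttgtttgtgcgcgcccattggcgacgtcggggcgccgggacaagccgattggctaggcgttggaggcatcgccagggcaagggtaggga
Pdk3: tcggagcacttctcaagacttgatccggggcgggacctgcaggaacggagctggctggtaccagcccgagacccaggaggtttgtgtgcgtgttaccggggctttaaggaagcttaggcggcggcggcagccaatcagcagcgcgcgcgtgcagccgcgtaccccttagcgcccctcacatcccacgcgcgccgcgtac
Pdp2: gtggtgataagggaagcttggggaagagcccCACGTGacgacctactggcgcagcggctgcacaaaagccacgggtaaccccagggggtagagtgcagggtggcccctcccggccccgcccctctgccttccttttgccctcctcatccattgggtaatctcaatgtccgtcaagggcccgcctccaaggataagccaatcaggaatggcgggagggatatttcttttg

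Windows of 300 bases, which also hold bases past those printed, were found for 9 of the 10 genes (Pdp1 had no entry) and were searched on both strands for 7 motifs. These were AGGTCA and AAGGTCA (nuclear and estrogen-related receptors), the direct repeat that binds PPAR with RXR, GTAAACA (forkhead box O), the palindrome that binds the glucocorticoid receptor, ACGTG (hypoxia response core) and CACGTG, which contains ACGTG on both strands. No window of the 9 genes held any of the first 5. CACGTG was present in the windows of Pdk2, at -126 to -121, and of Pdp2, at -219 to -214. These positions are counted from the start used for each window, which has 250 bases of the window upstream of it. The printed Pdp2 stretch holds only the first 229 of these, so it ends short of that start. Among all 32851 windows, 7.15% held CACGTG, 19.6% ACGTG, 16.3% AGGTCA, 4.72% AAGGTCA, 3.65% GTAAACA, 0.0396% the direct repeat and 0.00913% the glucocorticoid receptor palindrome. Pdk3 and Pdhb held ACGTG without the E-box, and Pdk4, Pdk1, Pdha1, Dlat and Pdhx held none of the 7. The Pdk4 window had 12 CpG dinucleotides and that of Pdp2 14, fewer than the 25 of Pdk1 and of Pdk2 and the 35 of Pdk3. Each of these was above the median of 7 over all windows. These matches describe the letters of the windows and say nothing about binding.

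No gene of the complex passed the test between genotypes. Pdha1 (chrX:160122209-160138413), the E1 alpha gene and so the target of the kinases, had 5560 to 7094 normalized counts in WT (median 6573) and 6135 to 7855 in OE/OE (median 6938), a difference of 0.07 (standard error 0.07, limma p = 0.329, exact sign-flip p = 0.203, 95% interval -0.08 to 0.22). It was the steadiest of the 10 genes from pair to pair, with an SD of its pair differences of 0.117, and 2.87% of the table's genes varied less. Pdhb (chr14:8165996-8173025), the E1 beta gene, had 1383 to 2239 in WT (median 1850) and 1174 to 3469 in OE/OE (median 1741), a difference of -0.03 (standard error 0.11, limma p = 0.829, exact sign-flip p = 0.875, 95% interval -0.28 to 0.23).

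Dlat (chr9:50634633-50659780) had 1328 to 1765 normalized counts in WT (median 1507) and 1256 to 2159 in OE/OE (median 1504), with a difference of 0.05 (standard error 0.09, limma p = 0.559, exact sign-flip p = 0.734, 95% interval -0.15 to 0.26). For Pdhx (chr2:103021075-103073513) the values were 429 to 555 (median 505) and 399 to 795 (median 476), a difference of -0.03 (standard error 0.11, limma p = 0.787, exact sign-flip p = 0.734, 95% interval -0.29 to 0.22). Dld, the E3 gene that the complex shares with other dehydrogenases and that is not among the 10, had 2774 ± 276 normalized counts (SD, n = 7 WT mice) against 2903 ± 659 (7 OE/OE mice), a difference of 0.04 (standard error 0.09, limma p = 0.651, exact sign-flip p = 0.656). Ranges of the genotypes overlapped for every gene of the complex. With the adipocyte score as a covariate only Pdhx among them passed the test, at -0.26, a setting in which 2596 of all 16124 genes passed. The median difference of the 9 genes other than Pdk4 was -0.03 and their median size of difference 0.05, beside -0.00 and 0.09 over all 16124 genes.

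**Figure D4:**
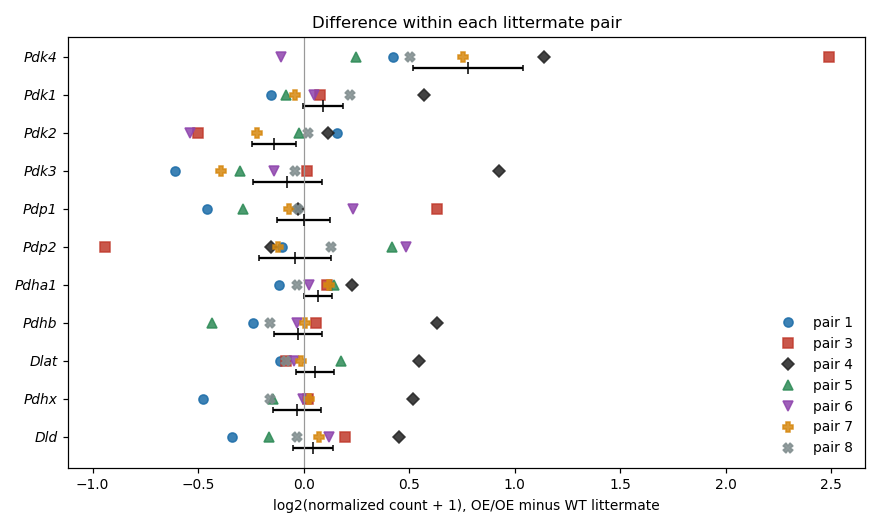
Difference within each littermate pair (horizontal axis, log2(normalized count + 1) of the OE/OE mouse minus the WT littermate) for the 10 genes and Dld, with the fitted difference ± standard error as a black bar under the points. Pdk4 lies above 0 in 6 of 7 pairs, the points of the other genes fall on both sides of 0, and pair 4 is the highest point for Pdk1, Pdk3, Pdha1, Pdhb, Dlat, Pdhx and Dld.

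The OE/OE mouse of pair 4 stood apart for the complex. It had the highest level of all 14 mice for Pdk3, Pdha1, Pdhb, Dlat, Pdhx and Dld, with 1085, 7855, 3469, 2159, 795 and 4254 normalized counts. Its WT littermate had the highest WT level of Pdhb (2239), was level with the WT mouse of pair 1 at the top for Pdhx (555) and stood at the WT median for Pdk3 (571). In pair 1 the same 6 genes were all lower in the OE/OE mouse, by up to 0.61 on the log2 scale for Pdk3. The proliferation score, over 10 mitotic genes that include Mki67 and Top2a, was 5.57 higher in the OE/OE mouse of pair 4 than in its littermate, against -2.47 to 0.53 in the other pairs, and the adipocyte, endothelial and fibroblast scores of that pair differed by -2.13, -1.74 and -1.11. The part of these differences in the values of the complex genes was not tested. Without pair 4 the differences were -0.13 for Pdhb, -0.12 for Pdhx, -0.03 for Dlat and 0.04 for Pdha1. Of the 9 genes other than Pdk4 only Pdk3 then passed the test, where 1366 of all 16124 genes passed.

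Littermates were then compared across genotypes, to see whether a litter with a high WT level also had a high OE/OE level. For Pdk4 the WT and OE/OE levels had an r of -0.222 (exact permutation p = 0.650, adjusted p = 0.919 over 10 genes), a rho of -0.25 (p = 0.595, adjusted p = 0.906) and an r of 0.406 without pairs 3 and 5. Pdhb came closest, with an r of 0.797 (exact permutation p = 0.0306, adjusted p = 0.306), a rho of 0.893 (p = 0.0123, adjusted p = 0.123) and an r of 0.846 without pairs 4 and 7. None of the 10 genes passed the adjustment, so no litter effect on their levels was detectable over 7 pairs.

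To place Pdk4 among all genes, deviations from the genotype mean were correlated over the 14 mice. The 5 genes most like Pdk4 were Angptl4 (r = 0.887), Cyp24a1 (0.851), Gm42636 (0.850), Foxn4 (0.838) and Fam76a (0.836), of which Cyp24a1, Gm42636 and Foxn4 had means of 60.0, 20.8 and 71.7 normalized counts and so rest on few fragments. These values describe an ordering of 16123 genes and carry no test. Angptl4, which encodes an inhibitor of lipoprotein lipase and responds to fasting like Pdk4, had an r of 0.877 in the WT mice, 0.907 in the OE/OE mice and 0.787 without pair 3. The same mice were used to choose Angptl4, so these values are not independent of that choice. In WT Angptl4 had 8079 to 19755 normalized counts (median 15837), lowest in pair 3 as was Pdk4, and in OE/OE 11406 to 21919 (median 17022), highest in pair 3 as was Pdk4. Between genotypes Angptl4 did not pass the test, with a difference of 0.14 (standard error 0.20, limma p = 0.495, exact sign-flip p = 0.75) that was above 0 in 3 of 7 pairs. Among the 10 genes, Pdp1 was closest to Pdk4 (r = 0.573) and Pdk2 and Pdp2 were farthest (r = -0.571 and -0.729).

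Genes around the pyruvate dehydrogenase step were taken from 6 lists, with 100 genes in the table, of which 6 passed the test (6%, beside 3.81% of all genes). Esrrb was put on its list with its difference in these mice known, and without it 5 of 99 passed (5.05%). With the pan-epithelial marker score as a covariate, Esrrb alone of the 6 still passed. In that setting 440 of all 16124 genes passed, against 614 without the covariate. The other 5 kept their direction, at 0.33 for Foxo3, 0.31 for Acot2, 0.30 for Ehhadh, -0.28 for Slc16a3 and -0.25 for Txnip. Of 8 partners and cofactors of the complex, 0 passed, and of 16 citrate cycle genes, 0 passed, in both cases also with no gene called without the block. Among 22 genes of glycolysis and pyruvate handling, 0 were higher and 1 lower, Slc16a3, a lactate exporter gene, at 482 ± 107 (WT) against 367 ± 60.0 (OE/OE) normalized counts (SD, n = 7; log2 difference -0.38, standard error 0.17, limma p = 0.0477, exact sign-flip p = 0.0938, lower in 6 of 7 pairs). That call was lost without each of pairs 4 (-0.30), 5 (-0.26), 6 (-0.34) and 7 (-0.39). In fatty acid oxidation, 1 of 19 genes was higher and 0 lower. The gene was Ehhadh, a peroxisomal beta-oxidation enzyme, at 228 ± 70.6 and 300 ± 73.3 (log2 difference 0.41, standard error 0.12, limma p = 0.00786, exact sign-flip p = 0.0156, higher in 7 of 7 pairs), a call lost without the block. Cpt1a, the carnitine acyltransferase that gates mitochondrial oxidation, differed by -0.08 (limma p = 0.443, exact sign-flip p = 0.469).

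Regulators known to act on Pdk4 gave 2 higher and 0 lower of 16 (12.5%, beside 3.81% of all genes). The 2 were Foxo3 and Esrrb, and Esrrb was listed with its difference in these mice known. Esrrb, an estrogen-related receptor gene, ran from 23.0 to 492 normalized counts in WT (median 99.8) and from 109 to 1191 in OE/OE (median 937), a difference of 1.75 (standard error 0.41), higher in 6 of 7 pairs. The exception was pair 3, where Esrrb differed by -0.34 and Pdk4 by 2.49. Foxo3, a forkhead factor gene, was higher in 7 of 7 pairs, at 5523 ± 802 (WT) against 6973 ± 1549 (OE/OE) normalized counts (SD, n = 7; log2 difference 0.32, standard error 0.09, limma p = 0.00714, exact sign-flip p = 0.0156). With the adipocyte score as a covariate Foxo3 was at 0.26 and no longer passed. Esrra (-0.01), Ppargc1a (-0.06) and Nr3c1 (0.10), which encode a further estrogen-related receptor, a coactivator and the glucocorticoid receptor, did not pass.

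Of 19 other targets of these regulators, 1 was higher and 1 lower. Acot2, a mitochondrial acyl-CoA thioesterase gene, was higher in 7 of 7 pairs, at 282 ± 30.8 (WT) against 362 ± 31.7 (OE/OE) normalized counts (SD, n = 7; log2 difference 0.36, standard error 0.09, limma p = 0.00232, exact sign-flip p = 0.0156). Txnip, which encodes an arrestin that restrains glucose uptake, was lower in 6 of 7 pairs, at 23089 ± 4321 and 18876 ± 5430 (log2 difference -0.32, standard error 0.11, limma p = 0.0159, exact sign-flip p = 0.0312), a call lost without the block. Acot2 and Txnip therefore lay on opposite sides within the list, whose median difference was 0.11. All 6 genes had a limma adjusted p of 1.00 over the whole table, where 2 genes (0.0124%) had an adjusted p under 0.05.

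**Figure D5:**
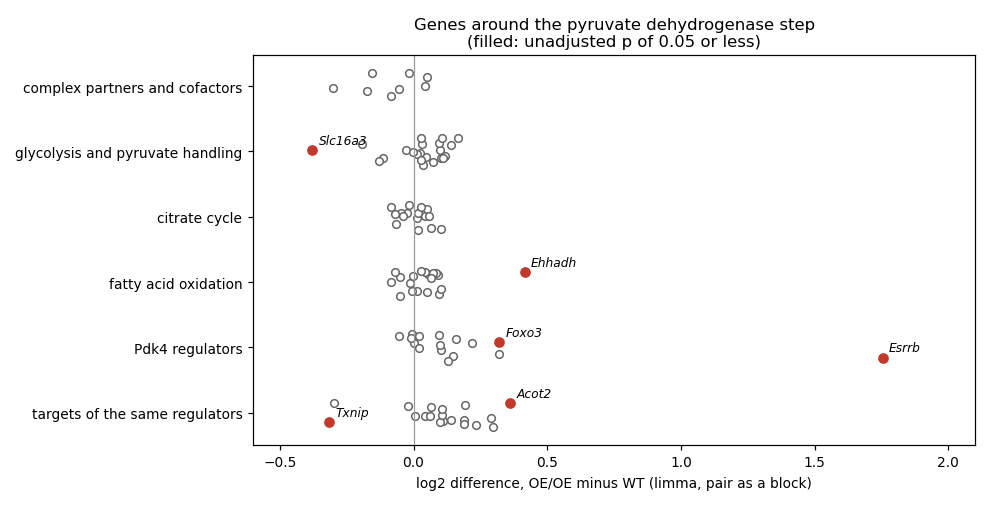
Log2 difference between OE/OE and WT (horizontal axis, limma with the pair as a block) of each gene in the 6 lists (rows, points spread vertically to be seen), with filled points at an unadjusted p of 0.05 or less. Filled are Slc16a3 (-0.38) and Txnip (-0.32) on the left and Foxo3 (0.32), Acot2 (0.36), Ehhadh (0.41) and Esrrb (1.75) on the right, and the citrate cycle and complex partners have no filled point.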

How the data were processed

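MECs of 7 WT and 7 Usp22 OE/OE littermates were sequenced from polyA RNA. The authors mapped read pairs to mm10 with TopHat2 2.0.10, counted fragments per GENCODE gene with HTSeq 0.6.0, dropped genes that did not reach 10 fragments in 7 or more libraries, and scaled each library by its DESeq 1.18.0 size factor. The deposited signal is thus a normalized count, linear and never negative, in 1 column per mouse, with no samples pooled by the authors. All values (100%) of each library were whole multiples of its smallest step (tolerance 0.001), which gave back the fragments, 20125106 to 41835978 per library. Depth limits the precision of the rarest gene, Pdp2, most. All 16124 genes matched GENCODE M21 (GRCm38), used for positions and exon lengths. Overlapping genes may share fragments.

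Genotypes were compared with limma 3.58.1 in R 4.3.3 (lmFit, eBayes with trend) on log2(normalized count + 1), with the pair as a block, over all genes, and with Benjamini-Hochberg adjustment. Fold changes on this scale understate those of low genes. It replaces the study's per-gene paired test, kept as an alternative. The labels give the pairing. Deviations of littermates from their genotype means had a median r of 0.522 across genes (0.171 to 0.748). For WT and OE/OE mice of different litters it was -0.151 (-0.538 to 0.634), so the ranges overlapped. Because deviations sum to 0 within a genotype, an r above 0 for littermates lowers r for the other combinations, and -0.151 is not a neutral baseline. Correlations over pairs used exact permutations (two-sided, smallest possible p 0.000198). Counts were simulated with 200 of 16124 genes changed by 1 on the log2 scale. At the same threshold as in the text, limma recovered 100% of these 200 genes and called 5.06% of unchanged genes. The simulation gave every gene the same dispersion and drew genes independently, without differences in cell make-up. Recovery for genes as variable between pairs as Pdk4 (SD of pair differences 0.849) was not tested. The largest difference among the 9 genes other than Pdk4 was -0.14 (Pdk2), and recovery at that size was not tested. The edgeR 4.0.16 (quasi-likelihood) and DESeq2 1.42.0 tests were run on the recovered fragments. Other alternatives were pseudocounts of 0.1 and 10, a minimum mean of 50, no trend, no block, 3 marker scores as covariates, median centring and each pair left out.

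Members and lists were chosen with earlier results of these data known. The text names the 10 genes, Usp22, Dld, Esrra, Esrrb, Ppargc1a and Nr3c1, up to 3 genes per list and direction with the smallest p at 0.05 or less, the 5 genes most like Pdk4 and the most abundant markers. Cpt1a and the proliferation genes were named after their values were seen. The list symbol Aldoa stands on more than 1 row, and the row with the higher mean was used. Score covariates are means of log2(normalized count + 1) over a marker list. Limma p-values with the block rest on the spread of littermate differences over the pairs, moderated with a trend over all genes. Sign-flip and permutation p-values come from rearranging the signs or the pairings of the values.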

Additional observations from a re-analysis of the deposited data

Results flagged for a closer look

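In 3 of 20 groups of 7 mice (10 genes in each genotype) 1 mouse lay farther from the others than Dixon's 95% limit for the gap to the nearest mouse over the range, where 1.0 would be so by chance. In all 3 it was the OE/OE mouse of pair 4. Pdk3 was at 1085 normalized counts there, with the nearest OE/OE mouse at 631 (gap over range 0.659). Pdhb was at 3469, with the nearest at 2106 (0.594), and Pdhx at 795, with the nearest at 513 (0.714). Mitotic markers of that mouse summed to 13844 normalized counts, against 330 in its littermate, and their part in the 3 values was not tested.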

How the results depend on the processing

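Pdk4 kept its direction under all 19 alternatives, between 0.49 (without pair 3) and 0.93 (without pair 6), and so did Pdk2 and Usp22. The number of genes called over the table was 614 with the block, 182 without the littermate block, 2596 with the adipocyte and 954 with the muscle score as a covariate, and 381 (without pair 6) to 1366 (without pair 4) when 1 pair was left out, with 1196 without pair 1. The other members called went from 0 to 2 with the adipocyte score (Pdk3 and Pdhx) and were 0 to 1 with 1 pair left out. With the pan-epithelial score as a covariate 440 genes were called over the table. There 5 of the 6 called pathway genes lost their call at once, all but Esrrb, and kept their direction. Over all alternatives, Slc16a3 lost its call under 10 of the 19 alternatives, Txnip under 3, Ehhadh and Foxo3 under 2 each and Acot2 under 1. The block changed the call of Ehhadh and Txnip, and no member's call. Genes at an adjusted p under 0.05 were 2, with DESeq2 19 and with the per-gene paired test 0. Differences near 0 turned sign: with the adipocyte score Pdk1 (-0.11), Pdha1 (-0.000835), Dlat (-0.0879), Dld (-0.15), Esrra (0.10) and Ppargc1a (0.58), with the pan-epithelial score Pdk3 (0.0551), Pdp1 (0.0330), Pdp2 (0.0061), Pdhb (0.0371) and Pdhx (0.0212), with the muscle score Pdp1 (0.0010), with median centring Pdp1 (0.0187) and Esrra (0.0135), with edgeR Pdp1 (0.00186), with DESeq2 Pdp1 (0.00106), and with the per-gene paired test Pdp1 (0.0137), Pdhb (0.0364) and Ppargc1a (0.0196). With 1 pair left out, the ranges across 0 were -0.25 to 0.0107 for Pdk3, -0.11 to 0.0759 for Pdp1, -0.13 to 0.11 for Pdp2, -0.13 to 0.0430 for Pdhb, -0.0270 to 0.0826 for Dlat, -0.12 to 0.0424 for Pdhx, -0.0244 to 0.11 for Dld, -0.0566 to 0.0614 for Esrra and -0.32 to 0.19 for Ppargc1a. The causes were not tested. The relation of Pdk4 and Pdp2 was recomputed with other pseudocounts, median centring and each pair left out, chosen after seeing the data, with an unadjusted exact permutation p of at most 0.0208 (without pair 3), and the adjustment over 9 genes was not repeated there.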
